A study of Mus musculus with 54 samples.

Results

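MicroRNA and messenger RNA were compared mouse by mouse in 12 animals for which both were sequenced from sorted small intestinal cells. The cells were Sox9-EGFP Low cells, a crypt fraction sorted on a low signal of a fluorescent reporter of the gene Sox9. All 12 mice were of the strain C57BL/6J with that reporter, and their labels give no age. The mice fell into 3 groups of 4: chow (a chow diet, animals BC180, BC183, BC241 and BC243), germ-free (raised without microbes, animals GF244, GF271, GF305 and GF315) and conventionalized (animals CD246, CD270, CD304 and CD314), a term for mice given a microbiota after a germ-free start. A mouse was included when its animal number appeared in both assays, which gave 24 libraries of the 54 samples in the series. Values by mouse follow the order of animals just given. Each number is a separate animal.

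Some points of labelling bear on what follows. The small RNA column of chow mouse BC241 names a high fat diet whereas its labels say chow, so the main counts and several single pairs are also given without this mouse. The replicate numbers of the conventionalized mice do not match between the assays, which were therefore joined on animal numbers. The small RNA names of CD304 and CD314 start with CVGF. A mouse on a high fat diet has the same number as GF244 and was not used. The lane number in the small RNA column names was 1 for all chow mice, germ-free mouse GF244 and conventionalized mouse CD246, and 2 to 5 for the others, so lane and group overlap in part.

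MicroRNAs are short RNAs that guide Argonaute proteins to messenger RNAs, mostly through pairing of their seed (bases 2 to 8) with sites in the 3′ untranslated region (UTR), and that usually lower the level or the translation of those messages. A microRNA whose gene lies inside a host gene can be made from the same primary transcript. miR-375 is abundant in endocrine cells of the pancreas and the gut. Enteroendocrine cells are the hormone-secreting cells of the intestinal lining, and in the crypt they lie among stem cells, dividing progenitors, Paneth cells, goblet cells and tuft cells. A bulk library mixes these cells, so fewer cells of a type and less RNA per cell cannot be told apart.

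The results on the microRNAs other than miR-375-3p turn in part on a few families that share a seed. Mature sequences are those of RefSeq for GRCm38.p6, in which 134 of the 158 microRNAs tested had a match, written 5′ to 3′ with the seed in capitals. The first set has the seed of the miR-17 family, whose members come from the clusters that hold miR-17 to miR-92a and miR-106b to miR-25.
miR-17-5p: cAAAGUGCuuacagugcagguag
miR-20a-5p: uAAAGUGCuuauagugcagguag
miR-93-5p: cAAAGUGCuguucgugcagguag
miR-106b-5p: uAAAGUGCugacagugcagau
The second set comes in part from the same clusters and shares another seed. The forms listed as miR-92a-1-3p and miR-92a-2-3p have the same mature sequence and differ in the gene copy they were assigned to, so their values can share reads.
miR-25-3p: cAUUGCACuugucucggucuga
miR-92a-3p: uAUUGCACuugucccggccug
miR-92b-3p: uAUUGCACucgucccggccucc
The third set is shown because its members moved with many genes or with the gene that hosts them.
miR-130b-5p: aCUCUUUCccuguugcacuacu
miR-130b-3p: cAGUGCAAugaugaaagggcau
miR-222-3p: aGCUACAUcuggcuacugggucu
miR-153-3p: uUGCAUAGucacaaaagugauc
The last set holds the miR-7 forms, which are known for high levels in endocrine cells, and the gut epithelial microRNAs miR-192 and miR-215, which share a seed.
miR-7a-5p: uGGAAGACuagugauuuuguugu
miR-7b-5p: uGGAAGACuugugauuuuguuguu
miR-192-5p: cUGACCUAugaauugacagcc
miR-215-5p: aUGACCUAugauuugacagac

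Small RNA values were reads per 1000000 mapped to microRNAs (RPMMM), and mRNA values were normalized counts. The tables kept 158 microRNAs with plain names and 12695 genes at a mean of at least 50, or 2005810 microRNA and gene pairs. The lowest values in each library imply depths, in units of 1000000 reads, of 1.74 to 12.1 for the small RNA libraries and 6.83 to 21.8 for the mRNA libraries, with germ-free mouse GF305 the shallowest in mRNA. A feature listed at 0 in the small RNA table had at most about 10 reads, since the lowest value listed in any library was worth 10.1 to 11 reads. An RPMMM value is a share of one total, so a rise of an abundant microRNA lowers the shares of others. Mitochondrial genes held 0.495% to 1.89% of the normalized counts, lowest in germ-free mouse GF305.

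miR-375-3p made up a large and variable part of the small RNA in these cells. Its median share of a library was 8.24%, with a range from 3.12% to 19.8%, and only miR-192-5p had a higher median (11.7%). The level of miR-375-3p was 55679.8, 35358, 144628 and 78794 RPMMM in the chow mice. It was 119812, 106618, 198437 and 123624 RPMMM in the germ-free mice, and 42327, 31198, 86006 and 51228 RPMMM in the conventionalized mice. All 4 germ-free mice lay above all 4 conventionalized mice, while chow mouse BC241 lay among the germ-free mice. By mRNA replicate number (1 to 4 in the order of animals given) the order was the same in every group: 2, 1, 4 and 3 from lowest to highest. Germ-free exceeded conventionalized mice by 1.44 on the log2 scale (limma adjusted p = 0.00884), and exceeded chow mice by 0.95 (adjusted p = 0.137). The 3 groups differed in 104 of the 158 microRNAs (65.8% called by the F test of limma at an adjusted p under 0.05). At the same threshold they differed in 42 of 12695 genes (0.331%), a number that ran from 1 without chow mouse BC180 or conventionalized mouse CD246 to 762 without germ-free mouse GF271. Without conventionalized mouse CD314 67 microRNAs differed. Because the groups differ in so many microRNAs, a relation over all 12 mice mixes differences between groups with those among mice of one group. The within-group relation is therefore given first throughout: a slope of log2(normalized count + 1) on log2(RPMMM + 1) from a limma fit with a term for group, or a Pearson r of values centred on their group means.

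**Figure D1:**
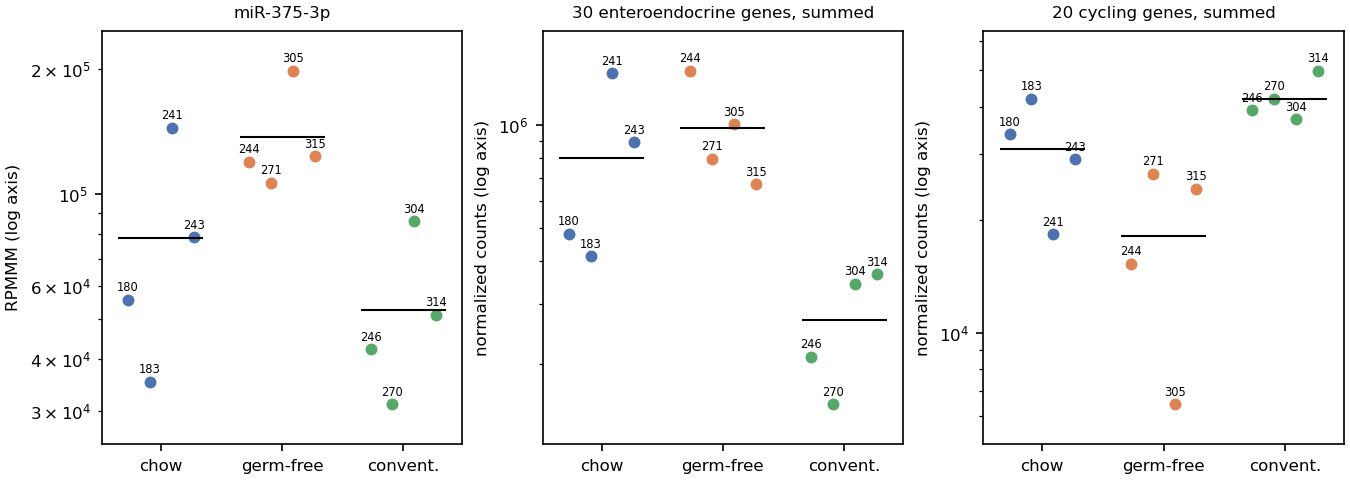
Levels by mouse (numbers are animals, horizontal lines are group means, y axes are logarithmic) of miR-375-3p in RPMMM and of the summed normalized counts of 30 enteroendocrine and 20 cycling genes. Germ-free mice lie above conventionalized mice in the first and second panels and below them in the third.

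Many more genes were called as rising than as falling with miR-375-3p among mice of the same group. Within groups, 204 of 12695 genes rose with it (1.61%) and 7 fell (0.0551%). The genes tested as a whole leaned the other way, with a negative median within-group r. Over all mice without the group term, 1697 rose (13.4%) and 3056 fell (24.1%), and 208 of the 211 genes called within groups were among them. The strongest riser by moderated t was Syt5 (ENSMUSG00000004961, chromosome 7, 4539765 to 4547541 on the minus strand of GRCm38), a synaptotagmin of secretory vesicles. Syt5 had 578, 330.2, 2032 and 827 normalized counts in the chow mice. It had 1920.2, 1501, 3084 and 1562 in the germ-free mice and 382, 153, 608 and 465 in the conventionalized mice. Within each group the mouse with the most miR-375-3p also had the most Syt5, and the mouse with the least had the least. The slope was 1.26 ± 0.149 (SE, adjusted p = 0.00564), so a doubling of miR-375-3p went with slightly more than a doubling of Syt5. The within-group r was 0.96 over 12 mice (exact permutation p = 2.17e-04) and rho was 0.93 (exact permutation p = 0.00145). Pooled r was 0.97 and pooled rho 0.99, each with a permutation p of 1e-05, the smallest that the draws can give. Without the 2 mice farthest from the median of miR-375-3p, within-group r was 0.96, and without chow mouse BC241 it was 0.93.

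Galr1, a receptor for the neuropeptide galanin, gave the highest within-group r of the 12 leading risers. Its normalized counts were 401, 198, 917 and 391 in chow mice, 1043, 756, 1834 and 1137 in germ-free mice, and 172, 110, 370.2 and 224 in conventionalized mice. All 4 germ-free mice lay above all 4 conventionalized mice, and chow mouse BC241 lay between germ-free mice. The slope was 1.10 ± 0.137 (adjusted p = 0.00564), with a within-group r of 0.97 (exact permutation p = 2.17e-04), a rho of 0.93 (exact permutation p = 0.00145) and a pooled r of 0.97. Without the 2 farthest mice the within-group r was 0.96, and without chow mouse BC241 it was 0.95. Syn2 (ENSMUSG00000009394, chromosome 6, 115134902 to 115282006), a synapsin that coats synaptic vesicles, kept the rank order of miR-375-3p in all 3 groups. Its within-group r was 0.96, with the smallest exact permutation p that 13824 rearrangements within groups can give (7.23e-05). The permutation rearranges each group on its own, although miR-375-3p had the same order by mRNA replicate number in all 3 groups. If mice of the same number were paired, this p and those of Syt5 and Galr1 could be too small. Snap25 (ENSMUSG00000027273, chromosome 2, 136713453 to 136782428), a SNARE protein of vesicle fusion, had 141 normalized counts in conventionalized mouse CD270 and 2669 in germ-free mouse GF305. These were also the mice with the lowest and the highest miR-375-3p. The slope of Snap25 was 1.27 ± 0.155 (r = 0.95).

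The other 8 leading risers had within-group r from 0.92 to 0.95. They were Lmx1a, a LIM-homeodomain transcription factor (ENSMUSG00000026686, chromosome 1, 167689237 to 167848741), Myt1, a zinc-finger transcription factor of neuroendocrine cells, and Syt13, a further synaptotagmin. With them were Serpinf2, which encodes alpha-2-antiplasmin, Slc38a11, a solute carrier, Trim62, a tripartite-motif protein, and Fam43a and Tmem44. Slopes ran from 1.09 for Trim62 to 1.42 ± 0.196 for Serpinf2, and the adjusted p from 0.00618 for Lmx1a to 0.00887 for Trim62. Lmx1a had 895, 388, 2375 and 963 normalized counts in chow mice, 3204, 1975, 5651 and 1979 in germ-free mice, and 562, 214.8, 929 and 587 in conventionalized mice. The germ-free mice lay above the conventionalized mice in Lmx1a without overlap.

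Most markers of enteroendocrine cells had a positive r with miR-375-3p. Of 30 listed genes, 29 had a positive within-group r, with a median of 0.76, against a median of -0.12 and 42.1% positive over all genes tested. By the fit across all genes 8 of the 30 rose and 0 fell, where 1.61% of all genes rose. Chga, chromogranin A of hormone granules (ENSMUSG00000021194, chromosome 12, 102554969 to 102565028), had 59598, 35854, 187989 and 69202.5 normalized counts in chow mice. It had 190837, 103271, 184321 and 89294.5 in germ-free mice and 22022, 10447, 52698 and 39114 in conventionalized mice. Germ-free and conventionalized mice did not overlap, and chow mouse BC241 lay between the highest germ-free mice. Chga had a slope of 1.23 ± 0.257 (adjusted p = 0.0312), a within-group r of 0.90 (exact permutation p = 0.00137) and a rho of 0.67 (exact permutation p = 0.0561). Its pooled r was 0.92 (permutation p = 1e-05) and its pooled rho 0.91 (permutation p = 7e-05). Within-group r was 0.89 without the 2 farthest mice and 0.83 without chow mouse BC241.

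Among transcription factors and enzymes of the enteroendocrine lineage, Neurod1, a factor of endocrine differentiation, had a within-group r of 0.91 (adjusted p = 0.0137). Pcsk1, the prohormone convertase that cleaves hormone precursors, had r = 0.93 (adjusted p = 0.0106), and its inhibitor Pcsk1n had r = 0.88 (adjusted p = 0.0165). Tph1, the enzyme that limits serotonin synthesis, had r = 0.90 (adjusted p = 0.0182). The granule proteins Scg3 and Resp18 and the transcription factor Pax4 were the other members called, with adjusted p of 0.0232, 0.0293 and 0.0394. Chgb, a second chromogranin, had r = 0.89 and an adjusted p of 0.0803. The hormone genes had lower values, and none was called: r was 0.76 for secretin (Sct), 0.73 for ghrelin (Ghrl), 0.67 for Cck, 0.66 for Pyy, 0.58 for proglucagon (Gcg), 0.46 for somatostatin (Sst) and 0.38 for Gip. Neurog3, the transient factor that starts endocrine differentiation, was the 1 member with a negative r (-0.22, exact permutation p = 0.510). Its normalized counts were 260.4, 298, 335 and 458 in chow mice, 690.0, 681, 311 and 478 in germ-free mice, and 684, 205, 166 and 178 in conventionalized mice. Germ-free mouse GF305, which had the most miR-375-3p, had the least Neurog3 of the germ-free mice.

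**Figure D2:**
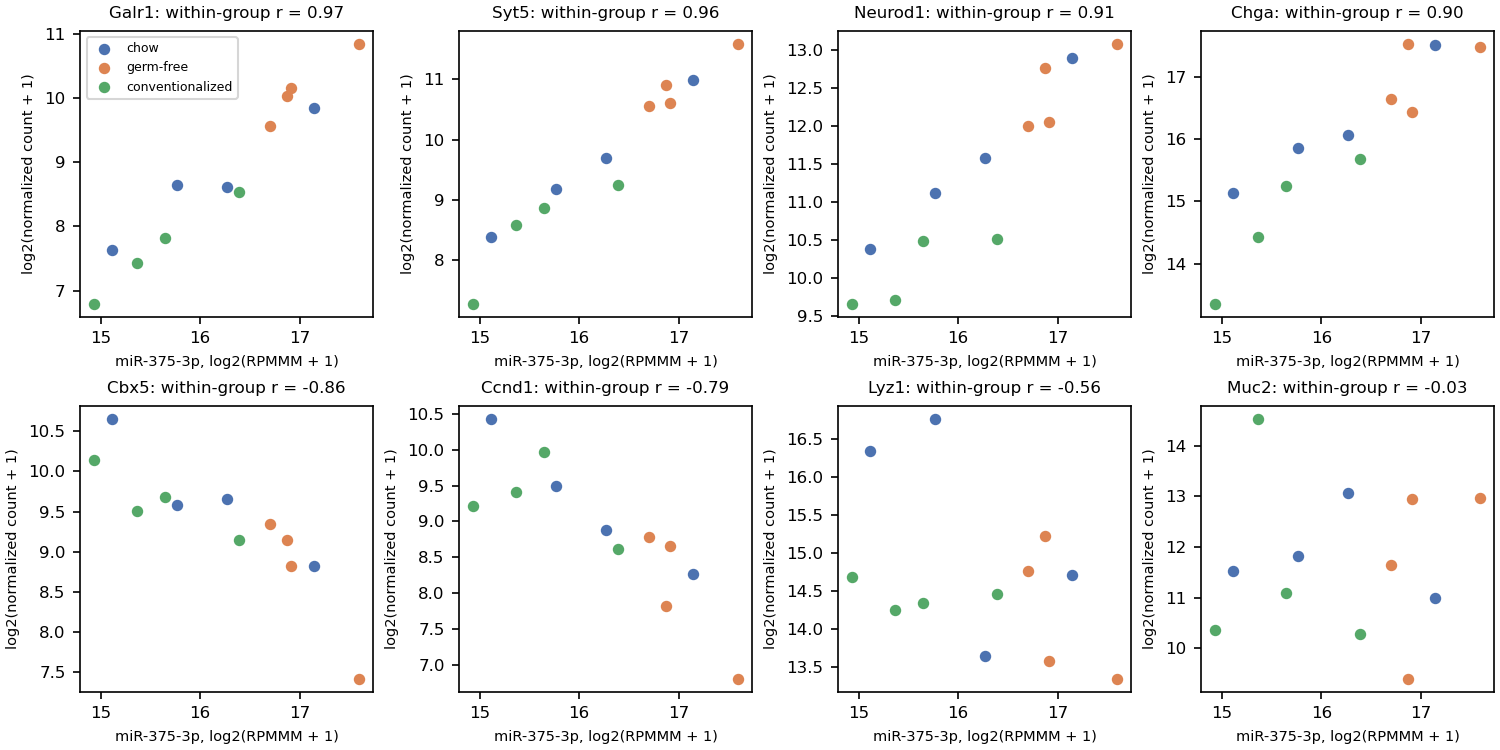
log2(normalized count + 1) of 8 genes against log2(RPMMM + 1) of miR-375-3p, 1 point per mouse, coloured by group. Galr1, Syt5, Neurod1 and Chga rise along the axis (within-group r from 0.90 to 0.97), Cbx5 and Ccnd1 fall (-0.86 and -0.79), and Lyz1 and Muc2 are scattered (-0.56 and -0.03).

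The 7 genes that fell with miR-375-3p within groups were Cbx5, Dmbt1, mt-Atp6, Ifrd2, Hsph1, Pole and Slc16a1. Cbx5, which encodes the heterochromatin protein HP1 alpha (ENSMUSG00000009575, chromosome 15, 103191544 to 103239816), had 763, 1609, 453 and 808 normalized counts in chow mice. It had 566, 648, 170.3 and 452 in germ-free mice and 725, 1127, 563 and 820.1 in conventionalized mice. The lowest chow mouse was BC241 and the lowest mouse of all was germ-free GF305. Its slope was -0.93 ± 0.187 (adjusted p = 0.0263), its within-group r -0.86 (exact permutation p = 7.96e-04), its rho -0.87 (exact permutation p = 0.00579) and its pooled r -0.87 (permutation p = 2e-05). Cbx5 gave -0.90 without the 2 farthest mice and -0.83 without chow mouse BC241.

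Dmbt1, a secreted scavenger-receptor glycoprotein of epithelia (ENSMUSG00000047517, chromosome 7, 131032053 to 131121630), had the steepest slope of these genes (-1.68 ± 0.340, adjusted p = 0.0263). Its highest value was 34740 normalized counts in conventionalized mouse CD246 and its lowest 729 in germ-free mouse GF305. mt-Atp6, a subunit of the mitochondrial ATP synthase encoded in the mitochondrial genome, had r = -0.89 (adjusted p = 0.0293). The mitochondrial share of the mRNA library moved the same way, with a within-group r of -0.82 with miR-375-3p over the 12 mice. The depth of the mRNA library had r = -0.52 with miR-375-3p and the depth of the small RNA library 0.12. The part of mitochondrial share and depth in these results was not tested. Pole, the catalytic subunit of DNA polymerase epsilon, had r = -0.85 (adjusted p = 0.0438), and Slc16a1, a lactate transporter, had r = -0.83 (adjusted p = 0.0490). Hsph1, a heat shock protein, and Ifrd2 both had an adjusted p of 0.0318. The next 5 genes by moderated t missed the threshold, with adjusted p from 0.0516 to 0.0583. They included Ccnd1, cyclin D1 (r = -0.79, adjusted p = 0.0527), and Larp1, an RNA-binding protein (r = -0.88, adjusted p = 0.0516).

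Lists of the other crypt cell types had a lower or a negative median r with miR-375-3p. All 20 cycling genes had a negative within-group r, with a median of -0.60, and all 12 tested Paneth genes did, with a median of -0.57. Stem cell genes were negative in 13 of 14, with a median of -0.48. None of these genes was called within groups. Top2a, the topoisomerase of dividing cells, had r = -0.71 (adjusted p = 0.127), Lyz1, the Paneth cell lysozyme, -0.56 (adjusted p = 0.2195) and Olfm4, a stem cell marker, -0.53 (adjusted p = 0.271). Median r was -0.05 over 14 tuft genes, -0.06 over 13 goblet genes and 0.00 over 18 enterocyte genes. The goblet mucin Muc2 had r = -0.03 (exact permutation p = 0.915) and the tuft kinase Dclk1 r = 0.04 (exact permutation p = 0.912).

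The summed enteroendocrine markers ran from 415140 to 1424300 normalized counts in chow mice, from 671820 to 1444400 in germ-free mice and from 152910 to 367350 in conventionalized mice. The summed cycling markers ran from 18309 to 42019, from 6468.8 to 26551 and from 37067 to 49883 in the same order. The 2 sums had within-group r with miR-375-3p of 0.81 and -0.67. Stromal and endothelial markers were low throughout, with 84.5 to 415.7 summed normalized counts in chow, 672 to 1298 in germ-free and 104 to 846 in conventionalized mice over 16 genes. All 3 of them that passed the filter had a positive r, and their sum had a within-group r of 0.60 with miR-375-3p. Leukocyte markers summed to 252 to 704 over 20 genes, and 2 passed the filter. No gene of either list was at 0 in every mouse, while the collagen gene Col1a1 was at 0 in chow mice BC183 and BC243 and conventionalized mouse CD246, and the T cell gene Cd3e in germ-free mouse GF315 and conventionalized mice CD246 and CD304. Pecam1, an endothelial adhesion molecule, had r = 0.70 with miR-375-3p (adjusted p = 0.151). The part of these cells in the results was not tested.

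**Figure D3:**
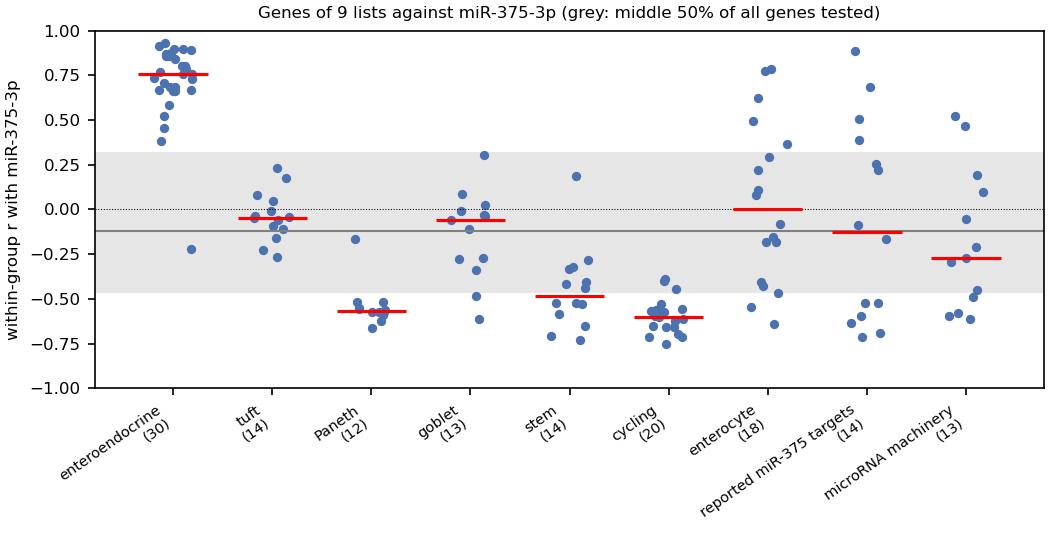
Within-group r with miR-375-3p of the tested genes of 9 lists (points, numbers of genes in parentheses, red lines are medians) beside the middle 50% of all genes tested (grey band) and their median (grey line, -0.12). Enteroendocrine genes lie high, with 1 negative point, and cycling, Paneth and stem genes lie mostly below the grey median.

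Of 17 listed genes reported as targets of miR-375, 14 were tested, 6 with a positive and 8 with a negative within-group r, and the median was -0.13, beside -0.12 over all genes. None was called. The summed normalized counts of the 17 ran from 19888 to 25879 in chow, from 13828 to 19560 in germ-free and from 18287 to 25178 in conventionalized mice. This sum weighs the abundant members most, and it had a within-group r of -0.68 with miR-375-3p and a pooled r of -0.78. Aifm1, a mitochondrial flavoprotein, was lowest (r = -0.71, exact permutation p = 0.00232, adjusted p = 0.152), followed by Yap1, the transcriptional effector of the Hippo pathway (r = -0.69, adjusted p = 0.1996). Frzb, a secreted inhibitor of Wnt signalling, went the other way. Its normalized counts were 10.1, 8.31, 65.3 and 32.4 in chow mice, 159, 146, 199 and 89.1 in germ-free mice, and 37.2, 7.74, 64.9 and 32.5 in conventionalized mice. Frzb had r = 0.88 and an adjusted p of 0.0573. Of 13 genes of microRNA processing and Argonaute function, 4 had a positive r and none was called.

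The number of genes called with miR-375-3p rested on single mice. Without chow mouse BC241 or without chow mouse BC183, 0 genes were called by limma, with 1099 and 1594 genes at an unadjusted p under 0.05. Without germ-free mouse GF271 the number was 96, without chow mice BC180 and BC243 it was 110 and 128, without germ-free mouse GF305 it was 122, and without conventionalized mouse CD304 it was 135. Without conventionalized mouse CD270 the number was 722. A term for lane 1 gave 249 genes. Adding a term for mRNA replicate number gave 0 by limma (510 at an unadjusted p under 0.05). Germ-free and conventionalized mice alone also gave 0 by limma (569 at an unadjusted p under 0.05).

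Some genes of dividing and stem cells had slopes on miR-375-3p that differed among the 3 groups. This was so for 664 of all genes (5.23%, limma test of the interaction at an adjusted p under 0.05), for 9 of the 20 cycling genes and for 5 of the 14 stem cell genes. The cycling genes were Ccnb1, Ccnb2, Cdk1, Aurka, Aurkb, Birc5, Plk1, Pcna and Tyms, and the stem cell genes were Ascl2, Smoc2, Tnfrsf19, Cdk6 and Myb. The median slope of the cycling genes was -0.60 in chow, -2.28 in germ-free and -0.03 in conventionalized mice. Cdk1, the kinase that starts mitosis, had slopes of -0.73, -2.46 and 0.24 in the same order (adjusted p of the difference 0.0221). Its normalized counts in germ-free mice were 599, 1425, 242.5 and 611, lowest in mouse GF305. Of the 30 enteroendocrine genes 0 were called in this test, and their median slopes were 1.04, 0.52 and 0.65. Each slope rests on 4 mice, and the count rested on germ-free mouse GF305. Without it limma called 0 genes in this test (501 at an unadjusted p under 0.05). Without germ-free mouse GF271 121 genes were called, none of them a cycling gene. The number was 214, 265, 322 and 324 without chow mouse BC183, BC180, BC241 or BC243, 393 without germ-free mouse GF244 and 1862 without conventionalized mouse CD304. Without chow mouse BC241, 6 cycling and 3 stem cell genes were called.

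Some microRNAs moved with miR-375-3p. Within groups 17 of 157 were called (10.8%), 5 rising and 12 falling. The risers were miR-125a-5p, miR-153-3p, miR-182-5p, miR-99b-5p and miR-30b-5p. The strongest faller was miR-92a-1-3p, with a slope of -1.12 ± 0.157 (adjusted p = 0.00128). Its level was 63015, 70641, 21445 and 37572 RPMMM in chow mice, 29940.4, 39748, 9745 and 27040.0 in germ-free mice, and 44493, 90598, 26728 and 50099.5 in conventionalized mice. Within each group its lowest value was in the mouse with the most miR-375-3p. miR-222-3p, miR-130b-5p, miR-92a-2-3p, miR-378-3p and miR-378-5p also fell, as did let-7a (both copies), let-7d-5p, let-7g-5p, miR-1981-5p and miR-5117-5p. With median-of-ratios scaling, which does not fix the total, 16 rose and 18 fell, and both copies of let-7a missed the threshold (slope -0.25 for each, adjusted p = 0.0799 and 0.0779). The number was 1 without chow mouse BC183 and 3 without chow mouse BC241, and 26, 30 and 36 without conventionalized mouse CD246, CD270 or CD304.

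Genes of dividing cells rose with the 5 microRNAs that had the most genes called. No microRNA and gene pair passed adjustment over all 2005810 pairs together (smallest adjusted p 0.110). In the separate fit of each microRNA, 30 microRNAs had at least 1 gene called, and 128, among them miR-192-5p, had none. Over all pairs, 10.5% had an unadjusted p under 0.05. The 5 were miR-130b-5p, miR-378-3p, miR-222-3p, miR-92a-2-3p and miR-25-3p. Of these, 4 also fell with miR-375-3p, while miR-25-3p missed the threshold (slope -0.55, adjusted p = 0.0755). With miR-130b-5p 1975 genes rose (15.6%) and 631 fell (4.97%). The shares were 14.1% rising and 4.78% falling for miR-378-3p, 13.8% and 4.8% for miR-222-3p, 12.3% and 2.91% for miR-92a-2-3p, and 11.8% and 3.05% for miR-25-3p. The form miR-92a-1-3p, of the same mature sequence, had far fewer genes called than miR-92a-2-3p, 464 (3.65%) against 1925. At an unadjusted p under 0.05 by limma the numbers were closer, 3663 and 4016. Its median share of a library was 3.87%, against 0.105% for miR-92a-2-3p. All 20 cycling genes had a positive r with each of the 5, with medians from 0.81 to 0.84, and 16 or 17 of the 20 rose. Of the 30 enteroendocrine genes 29 had a negative r with each, and from 7 with miR-92a-2-3p to 15 with miR-378-3p and miR-222-3p fell. The mitochondrial share had a within-group r of 0.76 to 0.94 with these microRNAs and the depth of the mRNA library one of 0.53 to 0.62. Their part was not tested.

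miR-130b-5p had 74.0, 94.6, 14.9 and 42.2 RPMMM in chow mice, 42.1, 48.2, 9.25 and 51.0 in germ-free mice, and 87.9, 78.3, 66.2 and 69.6 in conventionalized mice. Chow mouse BC241 and germ-free mouse GF305 stood far below the rest. Their values rest on few reads, since 1 read was worth about 0.573 RPMMM in BC241 and 0.226 RPMMM in GF305. Its largest risers were Uck2, a uridine-cytidine kinase, Cdk6, the G1 cyclin-dependent kinase, and Wdr12, a ribosome biogenesis factor. Cdk6 had 2783, 3714, 698 and 1476 normalized counts in chow mice, 520.2, 974, 53.2 and 635 in germ-free mice, and 1107, 1889, 1833 and 1627 in conventionalized mice. Cdk6 had r = 0.92 with miR-130b-5p (exact permutation p = 0.0109) but 0.61 without the 2 mice farthest from its median. The largest fallers with miR-130b-5p were Shc2, an adaptor protein (r = -0.97), Ret, a receptor tyrosine kinase (r = -0.94), and Dnaja4, a chaperone (r = -0.93). Ret had 207, 155, 935 and 318 normalized counts in chow mice, 496, 265, 863 and 263 in germ-free mice, and 109, 157, 183.3 and 177 in conventionalized mice. The rank order of Ret was the reverse of that of miR-130b-5p in all 3 groups (rho = -1, exact permutation p = 7.23e-05 for r), and r was -0.85 without the 2 farthest mice. Cdk6 and Ret were picked from all genes for their moderated t on these values, so their permutation p values are no separate support.

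The other microRNAs of this set led to overlapping names. Knstrn, a kinetochore protein, had r = 0.92 with miR-378-3p and 0.93 with miR-222-3p. Nt5e, the ectonucleotidase CD73, had r = -0.94 with miR-378-3p, and Fam20c, a secretory pathway kinase, and Trim62 had r = -0.95 with miR-222-3p. With miR-25-3p the leading risers were Spc25, a kinetochore protein (r = 0.95), Gins1, a subunit of the replicative helicase (r = 0.945), and Pa2g4 (r = 0.96). The leading fallers with miR-25-3p were Evpl, an envelope protein of epithelia, Slc6a19, an amino acid transporter of absorptive cells, and Ids, a lysosomal sulfatase, with r from -0.95 to -0.91. With miR-92a-2-3p they were Bace1, Neat1 and Abca7, with r from -0.94 to -0.92. Ccnb1, cyclin B1, followed the rank order of miR-25-3p in every group (r = 0.83, exact permutation p = 7.23e-05, adjusted p = 0.0141).

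These counts rested on germ-free mouse GF305, which was lowest in miR-130b-5p, miR-378-3p, miR-222-3p, miR-92a-2-3p and miR-25-3p and lowest in mRNA depth. Without it, limma called 95 genes with miR-130b-5p (9 rising and 86 falling) and 245 with miR-222-3p (20 rising and 225 falling). It called 0 with miR-378-3p, miR-92a-2-3p and miR-25-3p, where 2321, 1604 and 2277 genes had an unadjusted p under 0.05. Without germ-free mouse GF271, 0 genes were called with miR-92a-2-3p or miR-25-3p, with 3150 and 3204 at an unadjusted p under 0.05. Without chow mouse BC183 the 5 microRNAs had 738 to 1661 genes called, and without chow mouse BC241 miR-92a-2-3p had 309 and miR-222-3p 1069. Without germ-free mouse GF271 miR-222-3p had 1545.

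**Figure D4:**
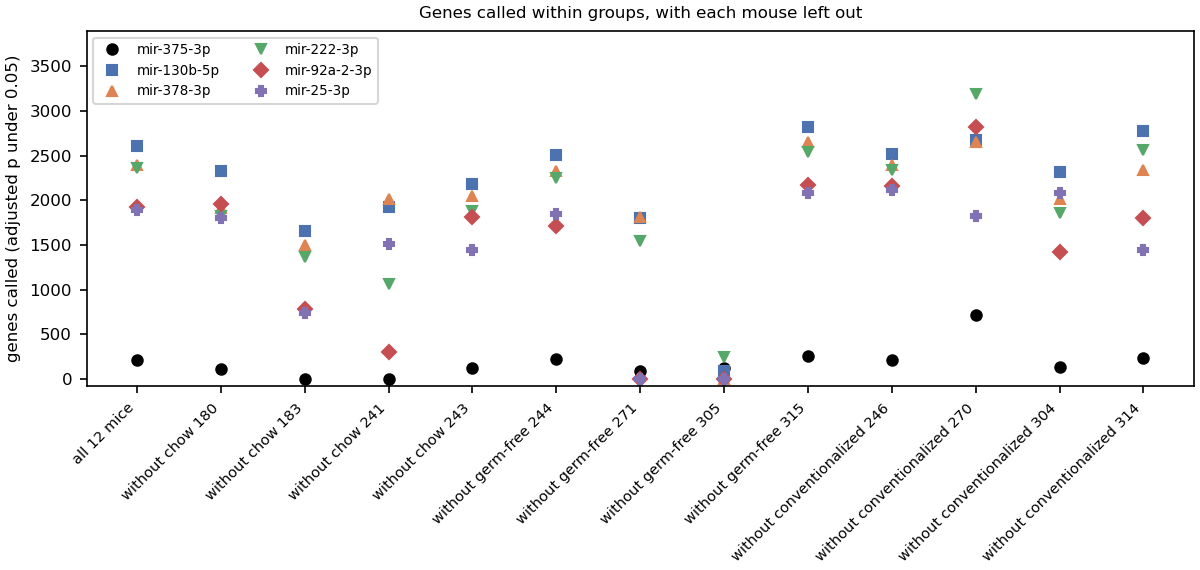
Number of genes called within groups (limma, adjusted p under 0.05) with miR-375-3p and with the 5 microRNAs that had the most genes called, in all 12 mice and with each mouse left out. The counts drop to 245 or fewer for all 5 without germ-free mouse GF305, and to 0 for miR-375-3p without chow mouse BC183 or BC241.

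In the miR-17 family, miR-20a-5p and miR-93-5p moved with many genes and the other members with none. With miR-20a-5p 12.7% of genes rose and 1.91% fell, and with miR-93-5p 12.5% rose and 1.76% fell. miR-20a-5p had 241.3, 425, 51.6 and 303 RPMMM in chow mice, 196, 193, 37.5 and 165 in germ-free mice, and 635, 538, 1025 and 1405 in conventionalized mice. Conventionalized mice lay above all others, and exceeded chow mice by 2.06 on the log2 scale (adjusted p = 0.0189). The germ-free minus conventionalized difference was -2.75 (adjusted p = 0.00482). All 20 cycling genes had a positive within-group r with miR-20a-5p (median 0.75) and with miR-93-5p (median 0.77), and 16 rose with each. Cdk1 had r = 0.79 with miR-20a-5p (adjusted p = 0.0164) and 0.82 with miR-93-5p (adjusted p = 0.0120). The 3 largest risers with miR-20a-5p, however, were H2-Ab1, H2-DMa and H2-Eb1, genes of major histocompatibility complex class II antigen presentation. Their r was 0.93, 0.93 and 0.92 within groups and 0.49, 0.64 and 0.52 over all mice. Pja2, a ubiquitin ligase, was the largest faller with both microRNAs, with r = -0.96 and -0.97. With miR-17-5p, miR-106b-5p and miR-19b-1-3p all 20 cycling genes also had a positive r, with medians of 0.59, 0.33 and 0.44. limma called 0 genes with each, while 2500, 252 and 406 passed an unadjusted p of 0.05. miR-106b-5p had a positive r with 15 of the 20 without chow mouse BC241. The counts for miR-20a-5p and miR-93-5p rested on germ-free mouse GF305 as well: without it limma called 0 genes with each (1830 and 1791 at an unadjusted p under 0.05), where 1860 and 1809 were called in all mice. Without chow mouse BC183 the counts were 993 and 965, without germ-free mouse GF271 1138 and 633, and without chow mouse BC241 2016 and 1481. Without conventionalized mouse CD246 miR-93-5p had 2819.

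The miR-7 forms followed the enteroendocrine genes less closely than miR-375-3p did in these values, and that difference was not tested. miR-7a-1-5p had 23664, 22428, 21150.5 and 45342 RPMMM in chow mice, 51461, 42537, 40105 and 38339 in germ-free mice, and 16940.2, 20515, 38185 and 34957 in conventionalized mice. Of the 30 enteroendocrine genes 29 had a positive within-group r with miR-7a-1-5p and with miR-7b-5p, with medians of 0.37 and 0.42. limma called 0 genes with either, while 185 and 179 passed an unadjusted p of 0.05. The depth of the small RNA library had a within-group r of 0.68 and 0.73 with these forms, and its part was not tested. Chga had r = 0.44 with miR-7b-5p within groups (exact permutation p = 0.264) and 0.75 over all mice (permutation p = 0.00505). Within-group r of that pair was 0.70 without chow mouse BC241 and 0.09 without the 2 mice farthest from the median of miR-7b-5p.

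Enterocyte genes leaned the same way with miR-194-1-5p and miR-215-5p but not with miR-192-5p, and limma called 0 genes with each of them. At an unadjusted p under 0.05 there were 377 genes with miR-215-5p, 438 with miR-194-1-5p and 1370 with miR-192-5p. All 18 enterocyte genes had a positive r with miR-215-5p (median 0.39), 17 did with miR-194-1-5p (median 0.46) and 7 did with miR-192-5p (median -0.10). Of all tested genes with a 3′ UTR, 51.3%, 41.9% and 56.3% had a negative r in the same order. Conventionalized mouse CD246 was highest of its group in miR-215-5p (83596 RPMMM) and in the summed enterocyte markers (76289 normalized counts, 25803 to 37133 in the others). The part of this mouse was not tested. Apoa1, an apolipoprotein of absorptive cells, had r = 0.81 with miR-194-1-5p (exact permutation p = 0.0265, adjusted p = 0.894) and 0.18 over all mice. For miR-215-5p and Alpi, the intestinal alkaline phosphatase, r was 0.61, and -0.06 without the 2 mice farthest from the median of miR-215-5p. miR-143-3p, known from stromal cells, had 0 genes called by limma (1013 at an unadjusted p under 0.05) and a negative r with all 3 stromal genes tested.

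MicroRNAs that lie within another gene on the same strand were compared with that host gene. By the GENCODE annotation of GRCm38, 57 pairs of a microRNA of 1 gene copy and a tested host on the same strand were found, with 39 hosts. The mature microRNA overlapped no annotated exon of the host in 43 pairs, an exon of a coding transcript in 3 (both arms of miR-21 in Vmp1, and miR-671-3p in Chpf2) and an exon of non-coding transcripts only in 11. Of these, 35 had a positive within-group r, or 61.4%, with a median of 0.16, where 52.4% of all pairs were positive with a median of 0.03. An exact permutation p under 0.05 was reached by 10 of the 57, all positive, where 10.5% of all pairs had an unadjusted p under 0.05 by limma. These shares come from different tests, since the exact test was run on 338 pairs only. In the fit of their microRNA across all genes 5 host pairs were called, all rising. The microRNAs of those pairs rose with 15.6% (miR-130b-5p), 12.5% (miR-93-5p), 11.8% (miR-25-3p), 9.55% (miR-130b-3p) and 5.18% (miR-153-3p) of all genes. Without chow mouse BC241 2 pairs reached that p, and without germ-free mouse GF305 3 did. The largest r was that of miR-130b-5p (chromosome 16, 17124109 to 17124130, minus strand) with 2610318N02Rik (17113398 to 17125167), in which the microRNA overlaps no annotated exon. The host had 153, 294, 57.9 and 129 normalized counts in chow mice, 87.6, 209, 10.9 and 293 in germ-free mice, and 292, 154, 189 and 313 in conventionalized mice. Chow mouse BC241 and germ-free mouse GF305 were lowest in the microRNA and in the host. Its r was 0.88 (exact permutation p = 0.00130, adjusted p = 0.00607), with a rho of 0.67 (exact permutation p = 0.0561), 0.92 without chow mouse BC241 and 0.57 without the 2 farthest mice.

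Mcm7, a subunit of the replicative helicase (ENSMUSG00000029730, chromosome 5, 138164583 to 138172422, minus strand), hosts miR-25, miR-93 and miR-106b. None of them overlaps an exon of a coding transcript, while miR-25-3p and miR-93-5p each overlap 1 exon of a non-coding transcript of Mcm7. The mature miR-25-3p lies at 138165332 to 138165353, miR-93-5p at 138165574 to 138165596 and miR-106b-3p at 138165746 to 138165767. Mcm7 had 3335, 3608, 2219.5 and 3636 normalized counts in chow mice, 1973, 2832, 509.6 and 2538 in germ-free mice, and 4350.01, 4424, 3732 and 5279 in conventionalized mice. miR-93-5p had 4170.4, 4872, 1615 and 4021 RPMMM in the chow mice, 2277, 2709.9, 880 and 2009 in the germ-free mice, and 5775, 6447, 9231 and 11945 in the conventionalized mice. Germ-free mouse GF305 was lowest in both, and conventionalized mouse CD314 was highest. The within-group r of Mcm7 was 0.79 with miR-93-5p (adjusted p = 0.0180), 0.755 with miR-25-3p (adjusted p = 0.0253), 0.74 with miR-106b-3p (adjusted p = 0.0549) and 0.34 with miR-106b-5p (adjusted p = 0.965). Without the 2 farthest mice the first and second were 0.67 and 0.37.

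miR-153-3p (chromosome 12, 117250860 to 117250881) overlaps no annotated exon of its host Ptprn2 (116485720 to 117276849), which encodes a membrane protein of secretory granules. miR-153-3p was also one of the microRNAs that rose with miR-375-3p. Ptprn2 had 274, 231, 992 and 540.5 normalized counts in chow mice, 721, 448, 861 and 551 in germ-free mice, and 135, 216, 169.6 and 156 in conventionalized mice. The pair had r = 0.75 (exact permutation p = 0.0257, adjusted p = 0.0399), and 0.59 without chow mouse BC241. The remaining host pairs with an exact permutation p under 0.05 were miR-130b-3p with 2610318N02Rik, which was also called (adjusted p = 0.0343), miR-22-3p with Tlcd2, miR-1981-5p with Marc2, miR-107-3p with Pank1 and miR-21-5p with Vmp1. The lowest r of a host pair was -0.56, for miR-200b-5p with Gm13648 (exact permutation p = 0.231).

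**Figure D5:**
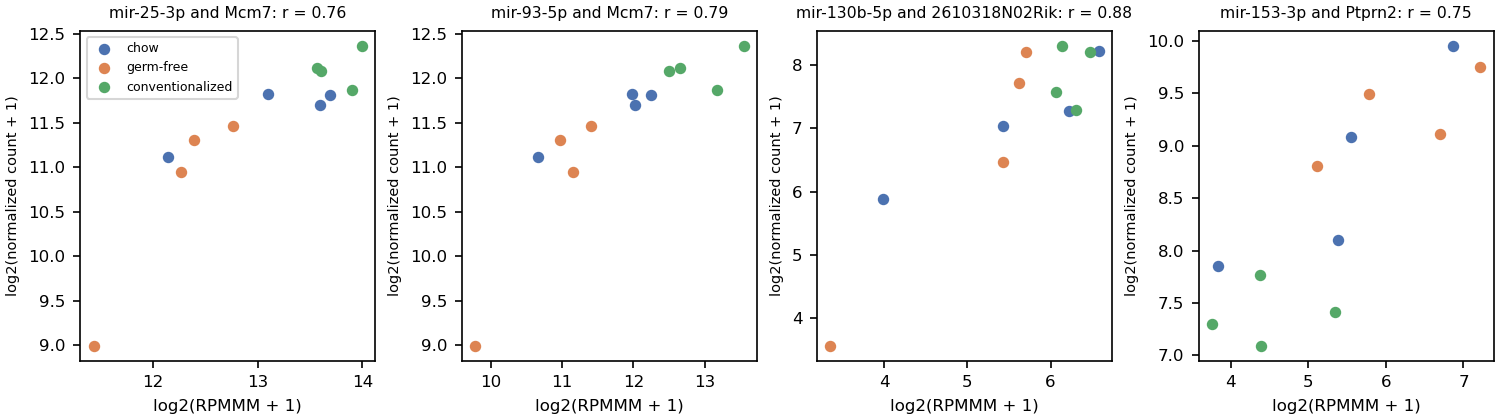
log2(normalized count + 1) of 3 host genes against log2(RPMMM + 1) of microRNAs that lie within them, 1 point per mouse, coloured by group. Within-group r is 0.76, 0.79, 0.88 and 0.75 from left to right, and germ-free mouse GF305 is the lowest point of the first 3 panels.

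Genes with a seed site were described for the 134 microRNAs with a sequence, over 11525 tested genes with a 3′ UTR. miR-375-3p and miR-378-3p had no matched sequence and were not among them. A site was a match to bases 2 to 8 followed by A on the strand of the message (8mer). In 93 of the 134 the median within-group r was lower among genes with a site than among those without, and the median of the differences was -0.05 (from -0.36 to 0.27). With median-of-ratios scaling the count was 70 of 134. The largest negative difference was that of miR-20a-5p. Its site GCACTTTA was in the UTR of 487 genes (4.23%), whose median r was -0.23, beside 0.13 for genes without it. The difference was -0.36, and from -0.42 to -0.20 with each mouse left out. The same site gave -0.34 with miR-93-5p, -0.26 with miR-17-5p and -0.15 with miR-106b-5p. The site GTGCAATA of 291 genes (2.52%) gave -0.28 with miR-25-3p and miR-92a-2-3p, and -0.25 with miR-92a-1-3p. With each mouse left out it gave from -0.36 to -0.11 with miR-25-3p. The range was from -0.38 to -0.07 with miR-92a-2-3p and from -0.41 to -0.05 with miR-92a-1-3p. With miR-92b-3p, which has the same seed, the same genes gave 0.25. These differences carry no test, since microRNAs with one seed share genes and mice.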

How the data were processed

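Small RNA and mRNA were sequenced from sorted Sox9-EGFP Low cells of the same 12 mice. Per the labels' protocols, the TriLink CleanTag kit was used for small RNA, and SMARTer Ultra Low Input (Clontech) with Nextera XT for mRNA. The deposited small RNA values are reads per 1000000 mapped to microRNAs (RPM, RPMMM) and each library sums to 1000000. The mRNA values are a normalized count signal deposited by the authors. Cell Ranger, STAR, Salmon, DESeq2 and mm10 are listed in the submitters' processing notes, without the step each served. Of the small RNA columns, 4 belonged to no sample and were not used. mRNA rows without a gene name (381 of 48440) held 0.0366% to 0.0804% of the values and were left out.

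limma 3.58.1 in R 4.3.3 (lmFit and eBayes with trend) fitted log2(normalized count + 1) on log2(RPMMM + 1) with a term for group, on 8 residual degrees of freedom, with Benjamini-Hochberg adjustment over all 12695 genes and calls at 0.05. Because 1 is added before the log2, changes of low features are understated. Single pairs, 338 in all, were tested two-sided by exact permutation within groups (13824 rearrangements) and, over all mice, with 100000 draws, in Python 3.11.15 with numpy 2.4.6, pandas 2.3.3 and scipy 1.17.1. Their adjusted p is that of limma across all genes. The limma fit was tested on simulated data with noise drawn separately for each gene. Deviations of a mouse that many genes share were not simulated, so it does not show how the calls behave under them. The genes named are, for miR-375-3p, the 12 largest and 12 smallest moderated t among genes other than Gm and Rik models, with list members and hosts, and for other microRNAs the 3 largest in each direction. Permutation p values of genes picked by their moderated t come from the same values and are no separate support. Depth was estimated from the spacing of low values. Alternatives were the pseudocount, the filter, median-of-ratios scaling, the group term, lane, a replicate block and leaving out each mouse. The members, lists and tests were chosen with earlier results of these data known.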

Additional observations from a re-analysis of the deposited data

Results flagged for a closer look

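In 11 of 165 sets of 4 mice, 1 mouse lay far from the other 3. The limit used is passed by about 1 in 20 independent sets of normal values. These values were not logged, the sets share mice and some can share reads, so that rate is no test of the count. Chow mouse BC243 was high in the miR-7 forms: miR-7a-1-5p was 45342 RPMMM (21150.5 to 23664 in the other chow mice), miR-7a-2-5p was 42079 RPMMM (18854 to 21837) and miR-7b-5p was 14251 RPMMM (6632 to 7539). Its summed goblet markers were 251123 normalized counts, against 71597.5 to 98987.5. Conventionalized mouse CD246 had 607503 summed normalized counts of goblet markers (23032.5 to 79942.7 in the others), 34739.6 of Dmbt1 (2816 to 7791) and 83596 RPMMM of miR-215-5p (37486 to 39599.9). In conventionalized mouse CD270 miR-194-2-5p was low, at 5186 RPMMM (12572 to 13869 in the others). In conventionalized mouse CD304 Ifrd2 was low, at 533 normalized counts (732 to 768). In germ-free mouse GF305 miR-378-3p was low, at 3632 RPMMM (6655 to 7049), and Trim62 was high, at 2325 normalized counts (729 to 993).

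The slope on miR-375-3p differed among the groups for 5 of the 94 genes tested as single pairs, where it did for 5.23% of all genes. Without germ-free mouse GF305 limma called 0 of all genes (501 at an unadjusted p under 0.05). For Tspan8 it was -0.65 in chow, -3.16 in germ-free and -0.14 in conventionalized mice (limma, adjusted p = 0.0158). For Cdk1 the adjusted p was 0.0221. Smoc2 had slopes of -0.20, -2.62 and -0.02 (adjusted p = 0.0263), Ascl2 of -0.25, -2.82 and 0.35 (adjusted p = 0.0339), and Ccnb1 of -0.57, -2.46 and 0.13 (adjusted p = 0.0342).

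The small RNA table also lists 7 forms of miR-375-3p with a shifted start, which the comparisons did not use. Together they came to a median of 7.04% of the plain form, from 6.21% to 8.09% by mouse.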

How the results depend on the processing

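The 211 genes called with miR-375-3p within groups became 231 with a pseudocount of 10, 254 with median-of-ratios scaling (222 rising, 32 falling), 111 with no filter on low values, 4753 with no group term and 0 in germ-free and conventionalized mice only (limma, 569 at an unadjusted p under 0.05, smallest adjusted p 0.446). With a replicate block, which takes mice of one replicate number as paired, limma called 0 (510 unadjusted), and 14 of the 211 had a slope of the other sign, among them Cbx5 and Slc16a1. Whether the numbers pair mice is not known. Correlations of deviations of same-numbered mice ran from -0.21 to 0.53 over genes (5 of 12 over 0.1, against 11 of 36 for other pairs). Over microRNAs they ran from -0.18 to 0.62 (7 of 12, median 0.17, against 12 of 36, median -0.03). miR-375-3p itself had the same order by mRNA replicate number in all 3 groups (2, 1, 4 and 3 from lowest to highest). The block and the level of miR-375-3p therefore overlap. Leaving out 1 mouse gave 0 to 722 genes within groups, 1888 to 5749 over all mice, 1592 to 34590 microRNA and gene pairs (158852 with no group term), 1 to 36 microRNAs with miR-375-3p (34 with median-of-ratios scaling), 0 to 1862 genes with slopes that differ among groups, 67 to 100 microRNAs and 1 to 762 genes differing among groups (genes: 347 with a pseudocount of 10, 100 with median-of-ratios scaling). It gave 95 to 2827 genes for miR-130b-5p, 0 to 2658 for miR-378-3p, 245 to 3196 for miR-222-3p, 0 to 2817 for miR-92a-2-3p and 0 to 2120 for miR-25-3p.

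Of 99 pairs with defining markers, 36 had an exact permutation p under 0.05, against 59 with no centring, 25 in lane 1 mice, and 16 (without germ-free mouse GF305) to 38 leaving out 1 mouse. Of 57 host pairs it was 10, against 20 with no centring and 2 (without chow mouse BC241) to 13 leaving out 1 mouse. Without centring, 30 enteroendocrine and 0 stem genes had a positive r with miR-375-3p. Leaving out 1 mouse gave 0 to 1 for stem genes, and 15 to 20 for cycling genes with miR-106b-5p. The count of 93 microRNAs with a lower median among seed site genes was 70 with median-of-ratios scaling and 76 to 96 leaving out 1 mouse. Among single pairs with the settings tried for them, r reversed for these uncalled pairs with miR-375-3p: Fcgbp (-0.0231 with median-of-ratios scaling, -0.523 in lane 1, -0.220 to 0.191 leaving out 1 mouse), Muc2 (0.00497 with no centring, -0.164 to 0.139), Tff3 (0.0436 with no centring, -0.379 to 0.141), Pou2f3 (0.336 in lane 1), Fabp1 (0.0417 in lane 1, -0.273 to 0.0618), Dclk1 (-0.110 to 0.422), Trpm5 (-0.166 to 0.422) and Clca1 (-0.289 to 0.118). The cause of these changes was not tested. Small RNA features under about 10 reads are listed at 0, which limits low microRNAs.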
